A study of Mus musculus with 36 samples.

Results

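Colon tumors of wild-type (WT) mice were compared with WT colon taken at day 15 of the same carcinogen and colitis protocol. The 6 arrays labelled WT tumor and the 4 labelled WT day 15 were chosen by their titles, so 10 of the 36 arrays of the series were compared, across 17097 genes. Mice of 6 to 8 weeks of age received azoxymethane (AOM), a carcinogen, followed by dextran sulfate sodium (DSS) in the drinking water. The DSS was given at 3% in 3 cycles, each of 5 days of DSS and 14 days of plain water. The tumors were collected at day 63 and the other colons at day 15, so both groups carried AOM and DSS. On that schedule day 15 came before the end of the first cycle and day 63 after all 3, so stage cannot be told apart from the amount of DSS received, age and time since AOM. Untreated WT colon (4 arrays), WT colon at day 7 (4 arrays) and the same stages of mice without Il17rc (KO, 6 tumor arrays and 4 at day 15) were used beside them. The labels name colon as the tissue of every array, do not state how tumors were separated from the colon around them, and give neither the strain nor the sex. Whether arrays of a group came from separate animals is not stated either, so the p-values rest on the spread among the arrays, which may be partly technical.

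In this model AOM damages the DNA of colon epithelial cells, and the repeated injury by DSS drives the growth of tumors, which in mice mostly carry activating mutations of the gene for beta-catenin. Beta-catenin is the effector of Wnt signalling. In normal colon it holds stem cells at the crypt base in division, while cells that move up the crypt leave the cycle and become absorptive colonocytes, goblet cells or enteroendocrine cells. Colitis brings in immune cells whose cytokines, IL-17 among them, act on the same epithelium. Il17rc encodes a subunit of the receptor for IL-17A and IL-17F.

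The values are deposited intensities per probe set on a linear scale, with 1 probe set per gene. The median of an array lay between 14 and 16, and a level near or below that cannot be told from background. Log2 differences were taken between tumors and day 15 after adding 1 and are given with the standard error (SE) of the limma fit, and a gene was called when its Benjamini-Hochberg adjusted p over all genes was below 0.05. For a gene near background in one group, the log2 difference depends on the added constant. How precise a value is depends on how many arrays a group has. The tissue was bulk, so fewer cells of a type and less RNA per cell cannot be told apart.

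Some arrays stood apart from their group. WT tumor replicate 6 lay on the side of the day 15 arrays along the first principal component of these 10 arrays, which carried 45.8% of the variance. It had 1419 units of Myh11, the smooth muscle myosin heavy chain, where the other tumors had 271 to 435. WT day 15 replicate 4 had 5585 units of S100a8, a neutrophil calcium-binding protein, where the other day 15 arrays had 192 to 869. Pancreatic acinar transcripts appeared on some arrays of both groups. Cela3b, an acinar elastase, had 9, 3694, 90, 10, 770 and 9531 units in the 6 tumors, against 414, 11, 8 and 8 units at day 15. Ctrb1, chymotrypsinogen B1, followed the same arrays, with 10 to 5646 units in tumors and 9 to 264 at day 15. Neither was called, with adjusted p = 0.187 for Cela3b and 0.248 for Ctrb1. Krt5, a keratin of squamous epithelium, stayed at 16 to 46 units in tumors and 16 to 21 at day 15, and none of the 18 squamous genes was called. The fit takes a gene's spread from all groups, and an untreated WT array had 6043 units of Krt5. Krt14, also of this list, had a log2 difference of 1.92 (adjusted p = 0.458). In a fit of the 10 arrays alone Krt14 passed (adjusted p = 0.015), while Krt15, Krt13 and Sprr2h did not. All tumor arrays lay above all day 15 arrays in 3 of the 18 genes, against 7.83% of all genes. Beside a list's counts, values with arrays left out are given where they moved it by more than 1.5 times and by more than 1 gene.

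Il17rc itself was lower on average in tumors. It had 95, 76, 115, 100, 109 and 223 units in the 6 tumors, against 301, 257, 341 and 109 units at day 15. The groups overlapped through tumor replicate 6 and day 15 replicate 4, and the log2 difference of -1.03 ± 0.52 did not pass (adjusted p = 0.178). The fit takes a gene's spread from all groups, and 2 arrays labelled KO day 7 had 331 and 44 units of Il17rc, where the other KO arrays had 7 to 15. Without these 2 arrays the same difference passed (adjusted p = 0.00463), without tumor replicate 6 and day 15 replicate 4 it was -1.64 (adjusted p = 0.0331), and in a fit of the 10 arrays alone it did not pass (adjusted p = 0.0819). On the KO arrays set beside them later, it averaged 8.83 units in tumors and 10.75 at day 15, near background as the genotype labels would have it. Of the 7 measured genes for IL-17 receptor subunits and their adaptor, Il17re and Traf3ip2 fell and Il17rd rose. Il17re, the receptor subunit for IL-17C, had a median of 64 units in tumors (46 to 82), against 135, 106, 180 and 86 units at day 15, with a log2 difference of -0.96 ± 0.21 (adjusted p = 0.00108). Traf3ip2, the adaptor Act1, fell by 0.43 ± 0.11 on the log2 scale, and its adjusted p of 0.00393 became 0.0563 without the 4 arrays with Cela3b above 100. Il17rd, an inhibitor of growth factor signalling that belongs to the family by sequence, had 36 to 96 units in tumors and 14 to 54 at day 15 (adjusted p = 0.00577), and the call was lost without day 15 replicate 3.

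In all, 3414 of the 17097 genes were called (20%), with 2088 higher (12.2%) and 1326 lower (7.76%) in WT tumors. Of these, 794 (4.64%) differed by at least 1 log2 unit, 449 of them higher (2.63%) and 345 lower (2.02%). The median log2 difference over all genes was 0.01. On normalized values, all tumor arrays lay above all day 15 arrays for 1338 genes (7.83%) and below them for 599 genes (3.5%), which left 1937 genes without overlap (11.3%), 1696 of them called (9.92%). The number of calls lay between 2370, without day 15 replicate 1, and 3843, without tumor replicate 6, when each array was left out in turn. Without the 4 arrays with Cela3b above 100, which leaves fewer arrays in both groups, it was 2277. The counts of the gene lists are to be read against the shares of all genes, 12.2% higher and 7.76% lower.

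Among called genes without overlap and with a mean of at least 64 units in the higher group, the largest rises were, in order, those of Itln1, Pnliprp1, Defa21, Pnliprp2, Mt4, Mmp7 and Wif1. Itln1, a lectin that binds microbial sugars, had 263 to 4359 units in the tumors, with a median of 2941, against 19, 10, 10 and 9 units at day 15. Day 15 was near background on every array while every tumor was far above it, and the log2 difference was 7.21 ± 0.46 (adjusted p = 1.24e-12). Defa21, an antimicrobial defensin of Paneth cells, had 2234, 892, 2771, 625, 1679 and 18 units in the 6 tumors, against 10, 11, 9 and 9 units at day 15. Tumor replicate 6 was near background for Defa21, and the log2 difference was 6.03 ± 0.80 with it and 7.07 without it. Mmp7, the protease that activates defensins in mouse Paneth cells and a known Wnt target, had 4590, 3255, 3930, 2521, 4019 and 828 units in tumors, against 87, 51, 155 and 24 units at day 15. Its log2 difference was 5.49 ± 0.41, and it was also 2.67 log2 units higher at day 15 than in untreated colon (adjusted p = 0.000688).

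Among genes tied to Wnt signalling, 19 of 25 measured targets rose and 1 fell, with a median log2 difference of 3.00, against 0.01 over all genes. The antagonists that the pathway switches on were high in 5 of the 6 tumors and lower in replicate 6. Wif1, a secreted protein that binds Wnt ligands, had 753, 702, 669, 964, 679 and 58 units in tumors, against 13, 8, 11 and 19 units at day 15. The log2 difference was 5.27 ± 0.43 (adjusted p = 4.05e-10). Notum, an enzyme that removes the lipid from Wnt ligands, had 312, 208, 368, 312, 314 and 31 units in tumors and 9 to 10 at day 15, a difference of 4.26 ± 0.39. Axin2, a scaffold of the complex that degrades beta-catenin, had a median of 312 units in tumors (49 to 458), against 13, 13, 24 and 21 units at day 15. Its log2 difference was 3.72 ± 0.40. Rnf43, a ubiquitin ligase that removes Wnt receptors, rose by 3.11 ± 0.39. Prox1, a transcription factor, had a median of 292 units in tumors (30 to 336) and 12 to 13 units at day 15, a difference of 3.87 ± 0.37.

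The other targets called higher were Nkd1, Znrf3, Tnfrsf19, Ephb3, Sox9, Myc, Ccnd1, Apcdd1, Dkk2, Bambi, Sp5, Lgr5, Ascl2 and Mmp7, and Id4 was called lower. Lgr5, the R-spondin receptor that marks stem cells of the crypt base, had 724, 343, 622, 595, 474 and 71 units in tumors, against 15, 19, 18 and 14 units at day 15. All tumor arrays were above all day 15 arrays, and the log2 difference was 4.48 ± 0.40 (adjusted p = 2.56e-09). Ascl2, a transcription factor that maintains these stem cells, had a median of 212.5 units in tumors (57 to 448), against 9, 12, 27 and 10 units at day 15, a difference of 3.85 ± 0.39. Ascl2 was also lower at day 15 than in untreated colon, by 1.91 log2 units (adjusted p = 0.0094). Of 15 stem cell genes, 9 rose and 0 fell, with a median of 1.66. Lgr5, Ascl2, Axin2, Rnf43, Sox9 and Tnfrsf19 belong to both lists.

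Ligands of the niche moved less as a group. Of 23 measured Wnt, R-spondin and bone morphogenetic protein (BMP) signals and their antagonists, 3 rose and 4 fell, with a median of -0.31. The share of rises was near that of all genes (12.2%), and 7.76% of all genes fell. Leaving out single arrays gave 2 falls (without tumor replicate 3) to 7 (without day 15 replicate 3). Wnt6 had 50, 32, 67, 44, 52 and 9 units in tumors, against 12, 10, 10 and 14 units at day 15, and Wnt10a had 8 to 113 units in tumors and 8 to 9 at day 15. Both ligands rose, by 1.61 ± 0.29 and 2.13 ± 0.38, and in tumor replicate 6 both were as low as on the day 15 arrays. Bmp2, a ligand that favours differentiation toward the crypt top, had 149, 158, 171, 206, 120 and 280 units in tumors, against 1140, 497, 778 and 829 units at day 15. The groups did not overlap, and Bmp2 fell by 2.16 ± 0.25 on the log2 scale (adjusted p = 2.39e-07).

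**Figure D1:**
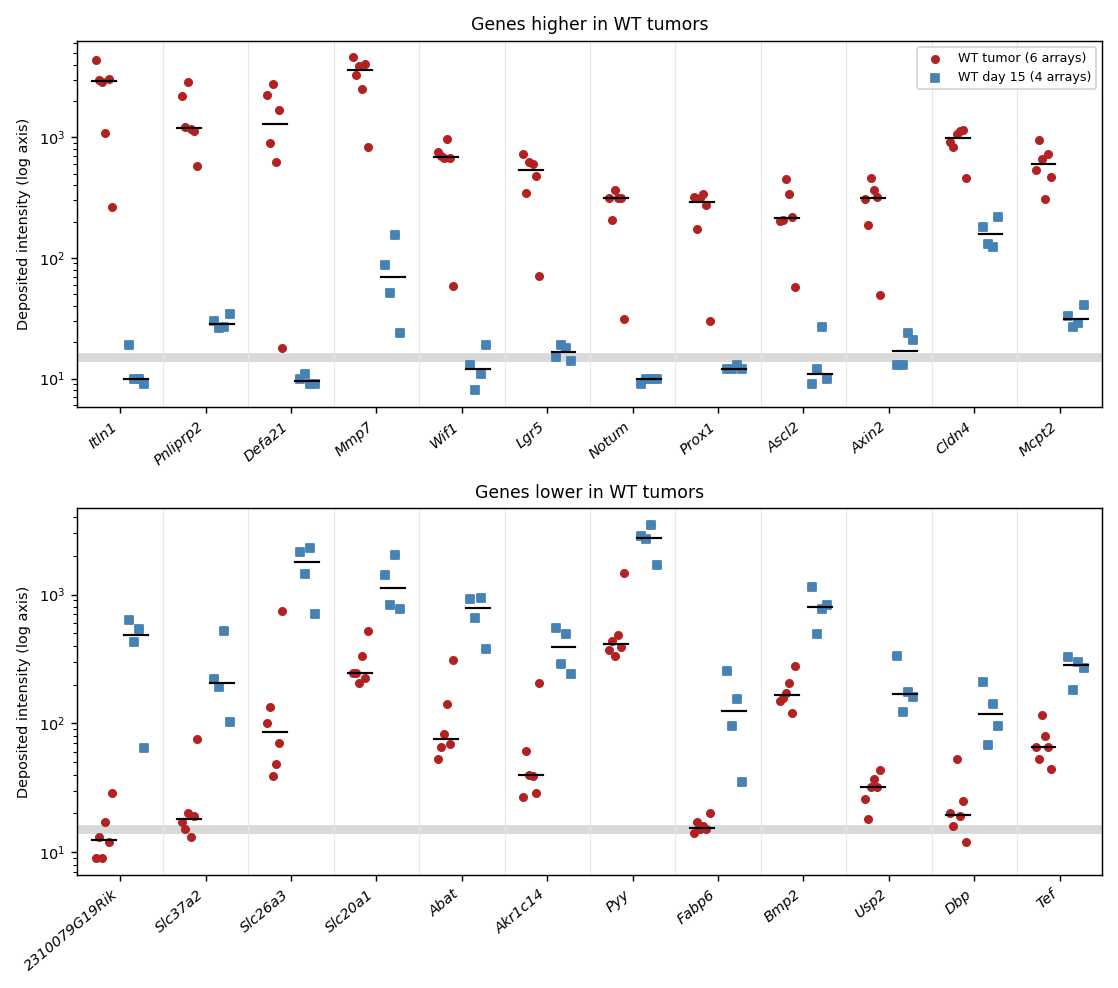
Deposited intensity (log axis) of 12 genes higher and 12 genes lower in WT tumors, with 1 point per array, WT tumors as red circles on the left and WT day 15 as blue squares on the right of each gene, a black line at the group median and a grey band at the range of array medians, 14 to 16. For Wif1, Lgr5, Notum and Prox1 a single tumor array, replicate 6, lies far below the other 5, and for Slc26a3 the same array, at 748 units, lies above the lowest day 15 array at 711.

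The promoter of Sp5, a transcription factor gene and Wnt target, is shown because it was the only one of 16 Wnt targets with a promoter entry that held the TCF/LEF letters CTTTGAT on either strand in the 200 bases before the start, 6.25% against 2.86% of 27025 genes. Sp5 was named after its values were seen. It had 160, 131, 188, 205, 201 and 33 units in tumors, against 13, 14, 14 and 17 units at day 15, a difference of 3.15 ± 0.31. The sequence is RefSeq's on GRCm38.p6, from 5′ to 3′ along the gene's strand, and the capitals mark the match.
Sp5 (chr2:70474723-70474922, plus strand): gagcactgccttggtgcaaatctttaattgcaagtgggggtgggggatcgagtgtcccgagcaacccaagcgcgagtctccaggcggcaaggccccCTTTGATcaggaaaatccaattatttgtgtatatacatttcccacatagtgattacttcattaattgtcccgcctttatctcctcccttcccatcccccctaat
No match in this window says nothing of sites farther away.

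Most genes of a list that joins Paneth cell and lipase genes rose, 9 of 12 measured, with a median of 4.08. Like the other lists, it was chosen with earlier results of these data known. Beside Itln1, Defa21 and Mmp7, Pnliprp2, a lipase-related protein of the pancreas, had 2182, 1206, 2855, 1163, 1135 and 579 units in tumors, against 30, 26, 27 and 34 units at day 15. Its log2 difference was 5.54 ± 0.33 (adjusted p = 4.92e-13). Pnliprp1, of the same family, had 1470, 1108, 1023, 737, 801 and 2451 units in tumors, against 65, 9, 10 and 8 units at day 15, a difference of 6.21 ± 0.49. Rnase1, a secreted ribonuclease made in quantity by the pancreas, had 791, 1438, 738, 332, 818 and 2449 units in tumors, against 85, 25, 25 and 19 units at day 15, a difference of 4.81 ± 0.82. All 3 genes were high in tumor replicates 1 and 4, in which Cela3b, Ctrb1 and Cpa1, the carboxypeptidase A1 gene, lay between 8 and 12 units. Pnliprp1 and Rnase1 were highest on tumor replicate 6, which had the most Cela3b, 9531 units, while Pnliprp2 was lowest there. At day 15 Pnliprp1 and Rnase1 were highest on replicate 1, which had 414 units of Cela3b. The part of acinar cells in these levels was not tested. Without the 4 arrays with Cela3b above 100, the log2 differences were 6.09 for Pnliprp2, 6.71 for Pnliprp1 and 4.61 for Rnase1. Of 16 genes of pancreatic acinar cells, a list chosen after the values were seen, 1 rose, Bhlha15, a transcription factor of secretory cells including plasma cells. Bhlha15 had 78 to 202 units in tumors, against 43, 32, 38 and 27 units at day 15.

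**Figure D2:**
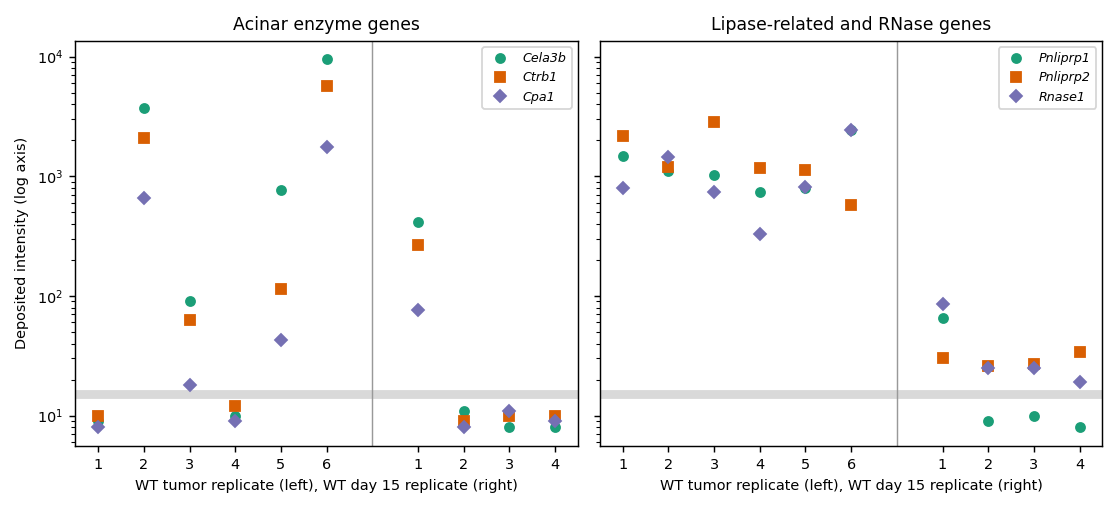
Deposited intensity (log axis) on each WT tumor array (left of the line, replicates 1 to 6) and each WT day 15 array (right, replicates 1 to 4), with a grey band at the range of array medians, 14 to 16. Cela3b, Ctrb1 and Cpa1 are at 8 to 12 units in tumor replicates 1 and 4, where Pnliprp1, Pnliprp2 and Rnase1 are between 332 and 2182. Pnliprp1 and Rnase1, like Cela3b, are highest on tumor replicate 6 and, at day 15, on replicate 1, while Pnliprp2 is lowest on tumor replicate 6.

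Antimicrobial lectins of the Reg3 family also rose. Reg3g had 136, 1001, 185, 480, 603 and 637 units in tumors, against 16, 22, 20 and 17 units at day 15, a difference of 4.39 ± 0.51 (adjusted p = 3.16e-07). Reg3b had 628 to 3304 units in tumors and 41 to 188 at day 15, a difference of 3.78 ± 0.91 (adjusted p = 0.00275), which no longer passed without the 4 arrays with Cela3b above 100 (adjusted p = 0.0667). Acinar cells of an inflamed pancreas are also known to make Reg3 proteins, and their part in these levels was not tested. The highest Reg3g and Reg3b levels were on tumor replicate 2, which had 3694 units of Cela3b. Tumor replicate 6, with 9531 units of Cela3b, had 637 units of Reg3g, and tumor replicate 4, with 10 units of Cela3b, had 480. Day 15 replicate 1, with 414 units of Cela3b, had the lowest Reg3g at day 15, 16 units.

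The other large rises had no single theme. Mt4, a metallothionein of stratified epithelium, had 411, 1122, 1603, 1304, 1286 and 61 units in tumors, against 12 to 17 at day 15. In untreated WT colon Mt4 had 1948, 9, 12 and 14 units on the 4 arrays, and the array with 1948 units also had the highest Krt5 there, 6043 units. Nebl, which encodes the actin-binding protein nebulette, and Myl7, a myosin light chain best known from the atrium of the heart, rose by 4.77 ± 0.75 and 4.41 ± 0.42. Myl7 was even across tumors, with 490, 482, 548, 373, 441 and 327 units, against 15, 21, 25 and 20 units at day 15. Prkg2, a kinase activated by cyclic GMP, had a median of 334 units in tumors (55 to 514) and 8 to 17 at day 15. Bex1, on the X chromosome, had 204 to 1555 units in tumors and 23 to 96 at day 15, and Nfe2l3, a transcription factor, had 64 to 584 units in tumors and 13 to 17 at day 15. Cfi, the complement factor that cleaves C3b, rose by 3.56 ± 0.32 with 32 to 302 units in tumors and 10 to 15 at day 15.

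Genes of mature absorptive cells fell. Of 36 measured colonocyte genes, 19 fell and 2 rose, with a median of -0.78. Slc26a3, the chloride bicarbonate exchanger of the apical membrane, had 100, 134, 39, 48, 70 and 748 units in tumors, against 2132, 1448, 2309 and 711 units at day 15. Only tumor replicate 6 reached the day 15 range, and Slc26a3 fell by 3.86 ± 0.67 on the log2 scale (adjusted p = 9.56e-05). Slc20a1, a phosphate transporter, had 207 to 519 units in tumors, against 1406, 825, 2024 and 768 units at day 15. Slc16a1, which carries the butyrate that feeds colonocytes, had 590 to 1337 units in tumors, against 2326, 1719, 2183 and 1611 units at day 15, and fell by 1.29 ± 0.16. Atp12a, the proton pump of the distal colon, fell by 1.97 ± 0.38. Slc37a2, a sugar phosphate transporter, had 17, 15, 20, 13, 19 and 75 units in tumors, against 221, 190, 525 and 102 units at day 15, a difference of -3.24 ± 0.44. Each of these transporters except Slc26a3 had every tumor array below every day 15 array.

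The 2 colonocyte genes called higher were Slc9a3, a sodium proton exchanger, and Guca2b, which encodes uroguanylin. Leaving out single arrays gave 14 to 22 colonocyte genes called lower, and 0 to 2 called higher.

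Large falls outside those already given were in transporters, enzymes, a secreted protein and a gene without a name. 2310079G19Rik, for which the files give no other name, had 9, 13, 9, 17, 12 and 29 units in tumors, against 633, 425, 544 and 64 units at day 15. It fell by 4.34 ± 0.59 to background in most tumors (adjusted p = 3.75e-06). Slc36a1, an amino acid transporter, had 45 to 80 units in tumors, against 485, 436, 556 and 268 units at day 15, a difference of -2.82 ± 0.26. Slc15a1, which takes up small peptides, had 10 to 49 units in tumors and 71 to 203 at day 15. Abat, which breaks down the neurotransmitter GABA, had 53, 66, 83, 141, 69 and 312 units in tumors, against 928, 653, 932 and 375 units at day 15. Akr1c14, a steroid-reducing enzyme, had 27 to 204 units in tumors and 242 to 545 at day 15. Itih5, a secreted hyaluronan-binding protein, had 236 to 999 units in tumors and 1336 to 2453 at day 15, and B3gnt7, a glycosyltransferase, had 24 to 76 units in tumors and 95 to 268 at day 15. The rank of Cyp2f2, a cytochrome P450, rested on values near background in tumors, 10 to 47 units, against 179, 133, 182 and 58 units at day 15.

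Hormone-producing cells showed the same direction. Of 19 enteroendocrine genes, 9 fell and 1 rose, with a median of -0.69. Pyy, which encodes the gut hormone peptide YY, had 368, 432, 334, 485, 394 and 1479 units in tumors, against 2840, 2694, 3462 and 1691 units at day 15. The groups did not overlap, and Pyy fell by 2.37 ± 0.31 (adjusted p = 2.34e-06). Sct, the secretin gene, had 17 to 33 units in tumors, against 86, 46, 107 and 56 units at day 15, and Neurod1, a transcription factor of these cells, had 23 to 37 units in tumors and 45 to 73 at day 15. The others called lower were Chgb, Gcg, Insl5, Ghrl, Scg2 and Scgn, and Nts, the neurotensin gene, was called higher. At day 15 the list lay above untreated colon, with 4 genes higher (2.09% of all genes), 0 lower and a median of 0.61, while tumors against untreated colon had 1 higher, 3 lower (10.1% of all genes) and a median of -0.06. The 2 contrasts share arrays with that of tumors against day 15.

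Few goblet cell genes were called. Of 17 measured, 2 fell and 0 rose, with a median of -0.12, where 7.76% of all genes fell and 12.2% rose. Without tumor replicate 6 and day 15 replicate 4, 4 fell. Muc3, a membrane mucin also made by colonocytes, had 1761, 1873, 1784, 2170, 1868 and 5151 units in tumors, against 6679, 6720, 7302 and 4884 units at day 15, and fell by 1.49 ± 0.31. Of 15 tuft cell genes, 1 rose and 0 fell, both shares below those of all genes, with a median of -0.02. Dclk1, of this list, had a log2 difference of -0.98 and was not called (adjusted p = 0.0691, and 0.0359 without tumor replicate 6). The gene that rose was Avil, an actin-binding protein, with 64 to 335 units in tumors and 16 to 31 at day 15. Avil averaged 136.2 units in untreated colon. Among 19 tight junction genes, 3 rose and 2 fell, shares near those of all genes (12.2% and 7.76%). Only 1 rose without day 15 replicate 4 or without the 4 arrays with Cela3b above 100. Cldn4 had 921, 830, 1068, 1129, 1156 and 460 units in tumors, against 182, 131, 123 and 219 units at day 15, a rise of 2.46 ± 0.29. Cldn8, a sealing claudin of the distal colon, had 153 to 802 units in tumors, against 1256, 1245, 1076 and 649 units at day 15, and fell by 1.67 ± 0.32. The transmembrane mucin Muc1 rose by 2.01 ± 0.44.

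Genes that mark position along the gut differed between the tumors themselves. Hoxd13, which is expressed in the distal colon and rectum, had 13, 195, 608, 1111, 395 and 142 units in tumors, against 822, 711, 926 and 518 units at day 15, and was not called (adjusted p = 0.059). Hoxb13 had 509 to 2376 units in tumors and 1644 to 3542 at day 15, with a log2 difference of -0.90 ± 0.31 (adjusted p = 0.0368). The Hoxb13 call was lost on leaving out any of 6 single arrays. Of 27 genes of regional gut identity, 3 rose and 3 fell, shares near those of all genes. Leaving out single arrays gave 1 to 3 rises and 0 to 5 falls, the lowest without tumor replicate 2 and tumor replicate 1 and the most falls without day 15 replicate 4. Without the 4 arrays with Cela3b above 100, 1 rose and 0 fell. The part of position along the colon in the results was not tested.

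**Figure D3:**
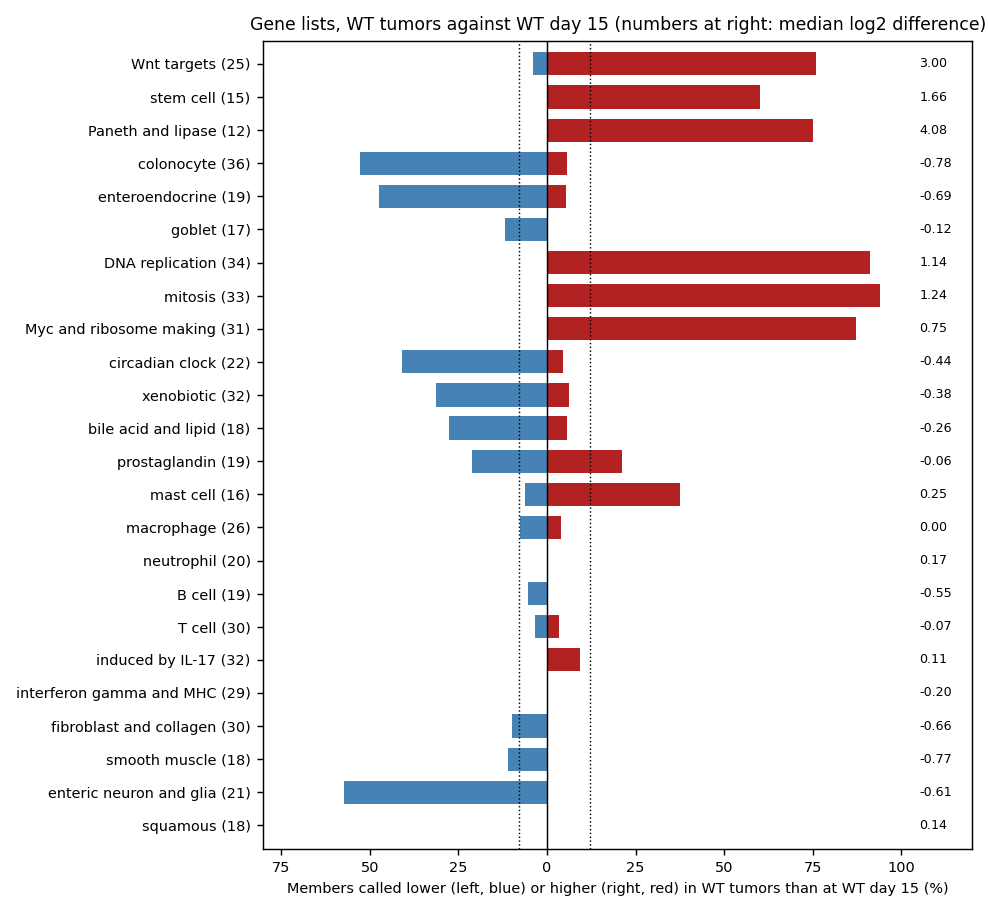
Percentage of the measured members of each list (number in brackets) called lower (blue, left) and higher (red, right) in WT tumors than at WT day 15, with dotted lines at the percentages over all genes, 7.76% lower and 12.2% higher. Mitosis (31 of 33), DNA replication (31 of 34) and Myc and ribosome genes (27 of 31) have the highest percentages called higher among the lists drawn, and neutrophil, interferon gamma and squamous genes have none called.

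Genes of DNA replication and mitosis were higher in tumors almost throughout the lists, by about 1 log2 unit. Of 34 measured DNA replication genes, 31 rose and 0 fell, with a median of 1.14, and of 33 mitosis genes, 31 rose and 0 fell, with a median of 1.24. Mcm6 and Mcm7, subunits of the helicase that unwinds DNA at origins, rose by 1.38 ± 0.19 and 1.39 ± 0.22. Mcm6 had 604, 697, 661, 770, 676 and 484 units in tumors, against 154, 317, 249 and 303 units at day 15. Rrm1, the large subunit of the ribonucleotide reductase that supplies deoxynucleotides, had 307 to 547 units in tumors, against 104, 199, 153 and 201 units at day 15. Cdk1, the kinase that starts mitosis, had 638, 686, 585, 902, 665 and 606 units in tumors, against 117, 362, 323 and 324 units at day 15, a difference of 1.40 ± 0.24 (adjusted p = 7.26e-05). Top2a, which untangles DNA, had 541 to 1144 units in tumors, against 116, 309, 316 and 326 units at day 15, and Aurkb, a kinase of chromosome segregation, had 92 to 182 units in tumors, against 14, 39, 36 and 63 units at day 15. In each of these genes no tumor array overlapped day 15, and day 15 replicate 1 was the lowest array.

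Day 15 itself differed from untreated colon in part of these genes. Mitosis genes were lower at day 15 than in untreated colon, 11 of 33 by call (1.28% of all genes), with a median of -0.84, while tumors against untreated colon had 4 genes higher (12.5% of all genes) and a median of 0.29. Cdk1 averaged 443.5 units in untreated colon and 101.8 at day 7. DNA replication genes differed from untreated colon more in tumors, with 25 of 34 higher and a median of 0.72. Without day 15 replicate 1, 25 mitosis genes and 28 DNA replication genes were called, with medians of 0.92 and 0.96. Without the 4 arrays with Cela3b above 100, which include day 15 replicate 1, 21 mitosis genes and 27 DNA replication genes were called.

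Promoters are shown for 4 of the cell cycle genes described above, Cdk1 and Top2a from the mitosis list and Mcm6 and Mcm7 from the replication list. Each was searched for all of the motifs below in the 200 bases before the start. The CHR letters TTTGAA were in 10 of 26 mitosis genes with a promoter entry (38.5%) and 2 of 29 DNA replication genes (6.9%), against 14.4% of 27025 genes. The letters CCAAT were in 19 mitosis genes (73.1%) and 16 replication genes (55.2%), against 32.7% of genes. At least 1 of the E2F-type letters TTTCCCGC, TTTGGCGC or TTTCGCGC was in 2 mitosis genes (7.69%) and 8 replication genes (27.6%), against 1.52% of genes. Both strands were searched, and matches may overlap. The sequences are RefSeq's on GRCm38.p6, from 5′ to 3′ along each gene's strand, and capitals mark matches of any of these motifs.
Cdk1 (chr10:69352913-69353112, minus strand): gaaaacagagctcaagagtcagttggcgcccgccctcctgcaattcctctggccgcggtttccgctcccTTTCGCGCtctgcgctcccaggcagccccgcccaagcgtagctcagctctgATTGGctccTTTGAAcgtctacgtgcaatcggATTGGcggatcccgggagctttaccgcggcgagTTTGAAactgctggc
Top2a (chr11:99024190-99024389, minus strand): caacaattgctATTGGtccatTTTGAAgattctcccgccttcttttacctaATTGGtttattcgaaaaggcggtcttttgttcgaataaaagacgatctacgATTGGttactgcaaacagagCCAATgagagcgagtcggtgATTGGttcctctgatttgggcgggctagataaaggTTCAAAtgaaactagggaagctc
Mcm6 (chr1:128359706-128359905, minus strand): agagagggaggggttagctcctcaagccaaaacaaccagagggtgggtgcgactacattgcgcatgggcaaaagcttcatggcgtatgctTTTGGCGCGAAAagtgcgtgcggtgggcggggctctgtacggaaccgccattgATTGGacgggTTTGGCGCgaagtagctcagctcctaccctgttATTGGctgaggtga
Mcm7 (chr5:138171884-138172083, minus strand): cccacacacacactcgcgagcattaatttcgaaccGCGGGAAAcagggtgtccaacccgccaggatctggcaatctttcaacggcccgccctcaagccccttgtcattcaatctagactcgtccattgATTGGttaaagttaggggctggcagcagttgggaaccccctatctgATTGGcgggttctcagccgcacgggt
Cdk1 held 2 CHR, 2 CCAAT and 1 E2F-type match, and Top2a held 2 CHR, 5 CCAAT and 0 E2F-type matches. Mcm6 held 0 CHR, 2 CCAAT and 3 E2F-type matches, and Mcm7 held 0 CHR, 2 CCAAT and 1 E2F-type match. These are matches of letters, and binding was not measured.

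Genes of ribosome production were also higher in tumors than at day 15. Of 31 Myc and ribosome biogenesis genes, 27 rose and 0 fell, with a median of 0.75. Gar1, a protein of the particles that modify ribosomal RNA, had 392, 370, 454, 477, 416 and 253 units in tumors, against 102, 192, 96 and 160 units at day 15, a rise of 1.55 ± 0.19 (adjusted p = 1.25e-06). Fbl, the methylase fibrillarin, had 816 to 1135 units in tumors and 389 to 644 at day 15, a rise of 1.01 ± 0.16. Mycn, a relative of Myc, had 59, 40, 81, 77, 43 and 29 units in tumors, against 17, 15, 12 and 16 units at day 15, so the lower side was near background. Of 23 p53 targets, 1 rose and 3 fell, where 12.2% of all genes rose and 7.76% fell. Without tumor replicate 6 and day 15 replicate 4 there were 4 of each. Cdkn1a, the cell cycle inhibitor p21, had 322 to 500 units in tumors, against 895, 552, 1123 and 531 units at day 15, a fall of 0.77 ± 0.18.

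Pyrimidine genes moved in both directions. Of 13 measured genes, 5 rose and 2 fell, where 12.2% of all genes rose and 7.76% fell. Without day 15 replicate 1, 3 rose. Dctd, which makes deoxyuridylate for thymidine synthesis, had 32 to 81 units in tumors and 8 to 19 at day 15, and Upb1, the last enzyme of pyrimidine breakdown, had 56 to 219 units in tumors, against 21, 20, 35 and 13 units at day 15. Upp1, uridine phosphorylase, had 115, 335, 114, 247, 134 and 415 units in tumors, against 1115, 1029, 1100 and 282 units at day 15. Day 15 replicate 4 overlapped the tumors for Upp1, which fell by 1.97 ± 0.42 (adjusted p = 0.000806).

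Circadian output genes were lower in tumors. Of 22 clock genes, 9 fell and 1 rose, with a median of -0.44, and leaving out single arrays gave 7 to 10 falls. Without the 4 arrays with Cela3b above 100, 3 fell, with fewer arrays in both groups and a median again of -0.44. Dbp, a transcription factor driven directly by the clock, had 20, 16, 53, 19, 25 and 12 units in tumors, against 209, 68, 142 and 95 units at day 15, and fell by 2.39 ± 0.36 (adjusted p = 1.35e-05). Tef, of the same family, had 66, 53, 116, 79, 65 and 44 units in tumors, against 326, 180, 298 and 271 units at day 15, and fell by 1.99 ± 0.25. Usp2, a deubiquitinase with a daily rhythm, had 18 to 43 units in tumors, against 333, 122, 176 and 161 units at day 15, and fell by 2.58 ± 0.32. Per3, a period gene, had 10 to 35 units in tumors and 30 to 77 at day 15. It fell by 1.49 ± 0.33, and this call was lost without the 4 arrays with Cela3b above 100 (adjusted p = 0.12). The others called lower were Per1, Per2, Cry2, Nr1d2 and Hlf. Csnk1e, a kinase that marks period proteins for degradation, rose by 1.35 ± 0.22, with 145 to 372 units in tumors and 62 to 179 at day 15.

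Across the stages Dbp averaged 403.2 units in untreated WT colon, 524.2 at day 7, 128.5 at day 15 and 24.17 in tumors. At day 15 against untreated colon, 3 genes of the list were lower (1.28% of all genes) and 1 higher (2.09%). In tumors against untreated colon, 10 were lower (10.1% of all genes) and 3 higher, the last a share near that of all genes (12.5%). The labels give no time of day for the collection of tissue.

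Promoters of Tef and Per3 are shown because they are clock genes with values above that held a match. Per1, called lower, also held an E-box and is not shown. The E-box letters CACGTG were in 6 of 18 clock genes with an entry (33.3%, against 6.0% of 27025 genes), and the D-box letters TTANGTAA in 1 of 18 (5.56%, against 1.92%). Both were searched for both motifs, and capitals mark the E-box in Tef and the D-box in Per3, in RefSeq sequence on GRCm38.p6.
Tef (chr15:81802473-81802672, plus strand): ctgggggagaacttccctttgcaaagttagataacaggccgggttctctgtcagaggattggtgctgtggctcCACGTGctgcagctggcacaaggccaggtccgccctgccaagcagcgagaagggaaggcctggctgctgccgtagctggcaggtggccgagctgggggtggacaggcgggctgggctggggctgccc
Per3 (chr4:151044666-151044865, minus strand): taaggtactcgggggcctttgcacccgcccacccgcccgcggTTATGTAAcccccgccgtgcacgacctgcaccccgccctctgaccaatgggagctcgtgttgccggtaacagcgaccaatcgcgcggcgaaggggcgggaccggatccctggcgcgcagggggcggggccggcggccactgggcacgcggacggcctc

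**Figure D4:**
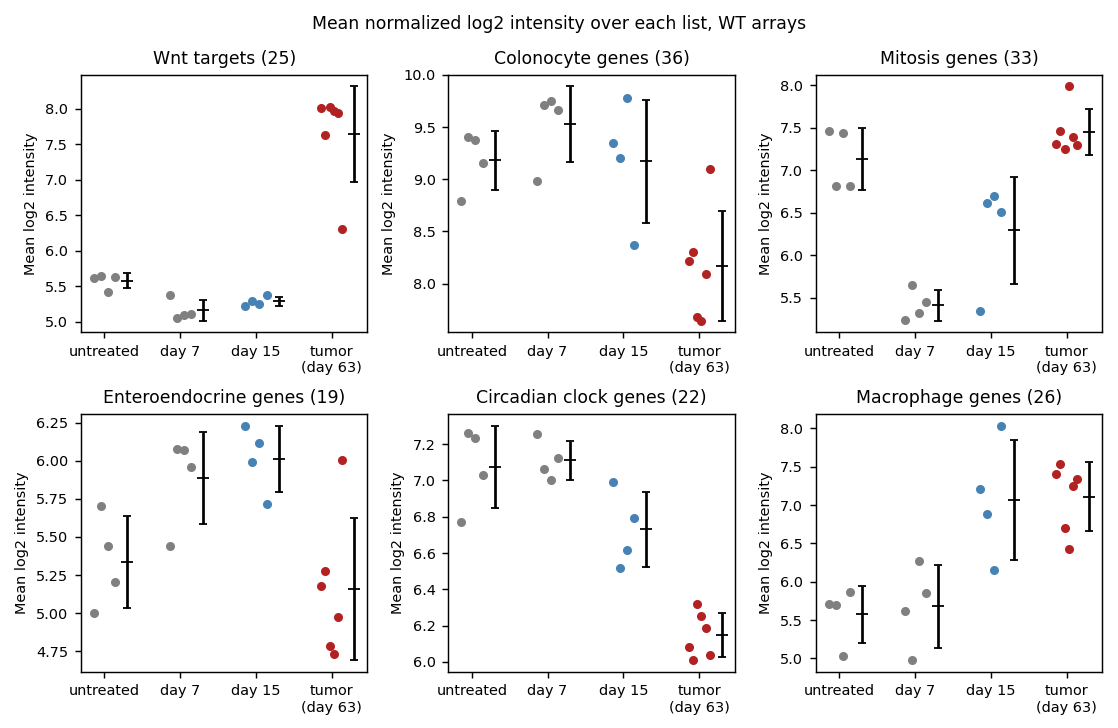
Mean normalized log2 intensity over 6 gene lists (number of genes in brackets) on each WT array, untreated, day 7, day 15 (blue) and tumor (red), with bars at the mean ± SD of 4, 4, 4 and 6 arrays. Wnt targets are higher in tumors than at every earlier stage, mitosis genes are low at day 7, and macrophage genes overlap between day 15 and tumors.

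Bile acid and drug handling fell in part. Of 18 bile acid and lipid genes, 5 fell and 1 rose. The falls numbered 8 without day 15 replicate 2 and 3 without the 4 arrays with Cela3b above 100. Of 32 xenobiotic genes, 10 fell and 2 rose, and 15 fell without tumor replicate 6 and day 15 replicate 4. Fabp6, the bile acid-binding protein best known from the ileum, had 14, 17, 15, 16, 15 and 20 units in tumors, against 255, 95, 154 and 35 units at day 15. Tumors were at background for Fabp6, and the log2 difference was -2.59 ± 0.51. Nr1h4, the bile acid receptor FXR, had 79 to 146 units in tumors, against 264, 286, 275 and 213 units at day 15, and fell by 1.24 ± 0.20 (adjusted p = 3.78e-05). Slc51b, a subunit of a bile acid exporter of the basolateral membrane, had 36 to 156 units in tumors and 127 to 309 at day 15. Cyp3a13, a cytochrome P450, had 54 to 257 units in tumors, against 452, 414, 829 and 278 units at day 15. Sult1a1, a sulfotransferase, had 174, 201, 339, 189, 250 and 1000 units in tumors, against 2026, 1724, 2262 and 785 units at day 15. Abcb1a, the drug efflux pump P-glycoprotein, had 97 to 758 units in tumors and 458 to 1684 at day 15. For Slc51b, Sult1a1 and Abcb1a the overlap came through tumor replicate 6 and day 15 replicate 4.

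Prostaglandin genes moved in both directions, 4 higher and 4 lower of 19, with 2 lower without day 15 replicate 1. Among all genes 12.2% were higher and 7.76% lower. Hpgd, which inactivates prostaglandin E2, had 410, 379, 370, 268, 249 and 639 units in tumors, against 1173, 805, 1640 and 656 units at day 15, and fell by 1.45 ± 0.29 (adjusted p = 0.000485). Slco2a1, which imports prostaglandins for breakdown, had 58 to 182 units in tumors, against 300, 215, 319 and 390 units at day 15, and fell by 1.74 ± 0.24. Abcc4, which exports prostaglandins among other substrates, had 231 to 822 units in tumors, against 187, 164, 146 and 251 units at day 15, and rose by 1.60 ± 0.26. Among 25 genes of glycolysis and hypoxia 6 fell and 0 rose. Hk1, a hexokinase, had 135 to 266 units in tumors and 319 to 410 at day 15. Of 36 genes of oxidative phosphorylation 1 rose and 2 fell, with 0 to 15 falls when single arrays were left out, so that count rested on single arrays, the highest being without day 15 replicate 4.

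Few immune genes were called, and those called most clearly were proteases of mast cells. Of 16 mast cell genes, 6 rose and 1 fell, with a median of 0.25. Mcpt2, a protease of mucosal mast cells, had 540, 954, 665, 310, 727 and 466 units in tumors, against 33, 27, 29 and 41 units at day 15, a rise of 4.16 ± 0.36 (adjusted p = 2.02e-09). Mcpt1, of the same cells, had 100 to 369 units in tumors, against 16, 14, 13 and 18 units at day 15, and rose by 3.96 ± 0.47. Cpa3, a mast cell carboxypeptidase, rose by 3.01 ± 0.41, and Fcer1a, the IgE-binding chain of the high-affinity receptor, had 13 to 95 units in tumors and 8 on every day 15 array. Mcpt9 and Ms4a2 were the others called higher, and Slc6a4, the serotonin transporter, was called lower. Mcpt2 averaged 10 units in untreated colon and 12 at day 7.

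Of 26 macrophage genes, 1 rose and 2 fell, with a median of 0.00, and without day 15 replicate 4, 2 rose and 0 fell. The share of rises was below that of all genes (12.2%), and the share of falls was near it (7.76%). Lyz2, the lysozyme of macrophages, had 3252 to 5716 units in tumors, against 3304, 2023, 1673 and 2790 units at day 15, and rose by 0.99 ± 0.27. It had averaged 681.5 units in untreated colon. Against untreated colon, 18 of the 26 genes were higher in tumors (12.5% of all genes) and 11 at day 15 (2.09%). The 2 macrophage genes called lower in tumors than at day 15 were Cd163, which fell by more than Lyz2 rose, and Timd4. Mmp12, the elastase of macrophages, which was not in that list, rose by 2.73 ± 0.54. Of 20 neutrophil genes 0 were called, and the spread at day 15 was wide, since S100a9, the partner of S100a8, had 1009 to 4767 units in tumors, against 1015, 2084, 346 and 7059 units at day 15. Of 19 B cell genes 1 fell and 0 rose, and Ms4a1, the B cell antigen CD20, had 40 to 377 units in tumors and 132 to 372 at day 15. Of 30 T cell genes 1 rose and 1 fell. The shares called among B cell and T cell genes were below those of all genes. Of 29 genes of interferon gamma response and antigen presentation 0 were called. Without tumor replicate 6 and day 15 replicate 4, 4 T cell, 2 B cell and 4 interferon gamma genes were called lower.

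Of 32 genes induced by IL-17, 3 rose and 0 fell, a share below that of all genes (12.2% higher). They were Reg3b, Reg3g and Muc1. Without tumor replicate 6 and day 15 replicate 4, 6 rose and 0 fell, and without the 4 arrays with Cela3b above 100, 2 rose and 2 fell. Il23a, the p19 subunit of the cytokine IL-23, which sustains IL-17-producing T cells, had 33, 13, 23, 13, 28 and 12 units in tumors, against 9, 9, 8 and 9 units at day 15. Il23a lay near background at day 15 and on tumor replicates 2, 4 and 6, and was low on the other tumors. Its log2 difference was 1.03 ± 0.18 (adjusted p = 0.00011). Il23a was the only gene called of 13 of type 17 immunity.

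Enteric nerve genes were in part lower. Of 21 genes of enteric neurons and glia, 12 fell and 0 rose, with a median of -0.61. Without day 15 replicate 4 the count was 6. Stmn2, a neuronal microtubule regulator, had 64, 54, 34, 40, 46 and 121 units in tumors, against 226, 89, 103 and 247 units at day 15, and fell by 1.51 ± 0.37 (adjusted p = 0.00353). Nos1, the neuronal nitric oxide synthase, had 26 to 52 units in tumors, against 70, 47, 58 and 122 units at day 15. Smooth muscle genes had a median of -0.77, with 2 of 18 called lower, against 7.76% of all genes. Without tumor replicate 6 the count was 9. Myh11 itself had 404, 271, 401, 435, 415 and 1419 units in tumors, against 1382, 885, 655 and 1626 units at day 15 (adjusted p = 0.0508, and 0.0067 without tumor replicate 6). The summed intensity of the 18 muscle genes was 11236 to 12561 in tumors 1 to 5 and 29312 in tumor 6, against 14872 to 28816 at day 15. Of 30 fibroblast and collagen genes 3 fell, a share near that of all genes (7.76%), with 1 fall without day 15 replicate 1 and 10 without day 15 replicate 3. Among the 3 was Postn, periostin, with 650 to 2099 units in tumors, against 3128, 2310, 1603 and 5878 units at day 15. The part of a different share of muscle layer in the epithelial results was not tested.

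The same stages were compared in KO mice, with no array in common. There 2497 genes were called (14.6%), 1463 higher (8.56%) and 1034 lower (6.05%). Called in the same direction in both genotypes were 1613 genes, which are 47.2% of the WT calls and 64.6% of the KO calls, and 0 were called in opposite directions. The WT change minus the KO change had 0 genes called by limma, with 926 at an unadjusted p below 0.05 (5.42%) and a smallest adjusted p of 0.641.

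Wnt target and colonocyte lists had medians near each other in the 2 genotypes. Of the 25 Wnt targets, 19 rose in WT and 19 in KO, with medians of 3.00 and 2.57. Of the colonocyte genes, 19 fell in WT and 14 in KO, with medians of -0.78 and -0.71. The pancreatic and Paneth lists had the widest gaps between the genotypes. The pancreatic list, chosen after the values were seen, had medians of 1.86 in WT and 4.43 in KO, with 1 and 12 of 16 genes called higher, and the Paneth list 4.08 in WT and 2.22 in KO, with 9 of 12 called higher in each. Next came mitosis, interferon gamma, type I interferon and DNA replication. DNA replication genes called higher numbered 31 in WT and 6 in KO, with medians of 1.14 and 0.38, and mitosis genes 31 in WT and 2 in KO, with medians of 1.24 and 0.38. Top2a differed by 1.54 ± 0.26 in WT and 0.45 ± 0.26 in KO, and the difference between them had an unadjusted p of 0.00594. Mcm6 differed by 1.38 ± 0.19 in WT and 0.44 ± 0.19 in KO (unadjusted p = 0.0017). Since 0 genes passed the adjusted test of that difference, it is not shown that the genotypes differ in these genes. Interferon gamma and antigen presentation genes had 0 lower in WT and 10 lower in KO, with medians of -0.20 and -1.04. The 22 type I interferon genes had 2 higher and 1 lower in WT and 0 higher and 10 lower in KO, with medians of -0.18 and -0.97. The same limit holds for all of these lists.

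**Figure D5:**
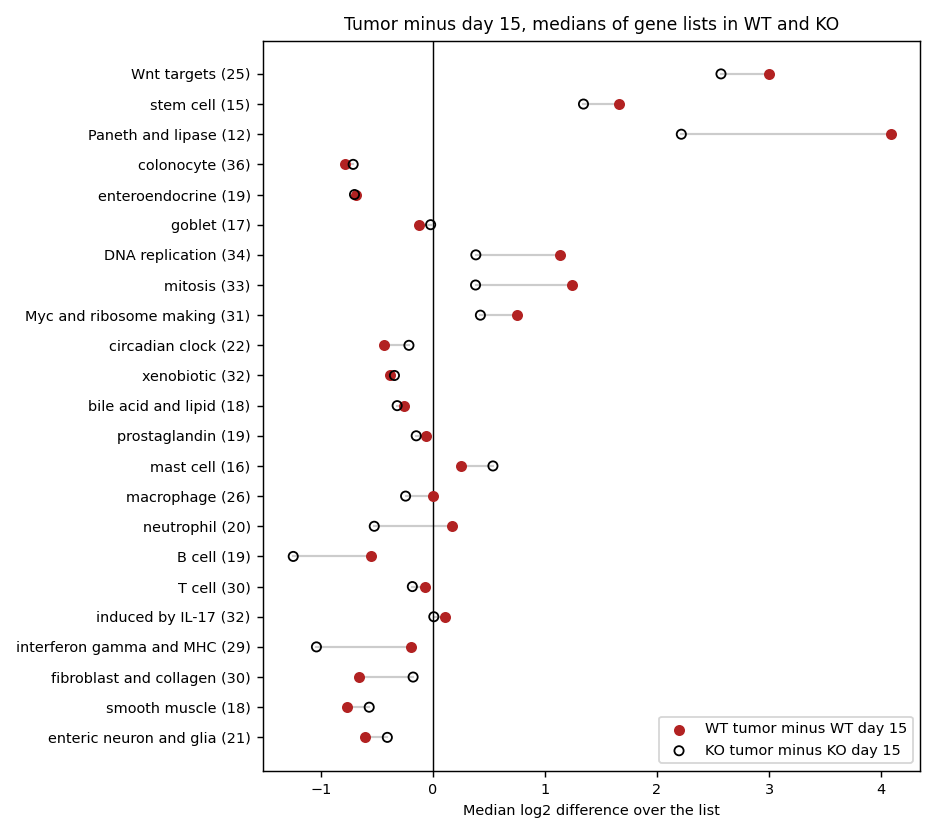
Median log2 difference, tumor minus day 15, over each gene list (number of genes in brackets) in WT (red, filled) and KO (open circles). Wnt target, colonocyte and enteroendocrine lists lie close together in both genotypes, and the Paneth list, at 4.08 in WT and 2.22 in KO, has the widest gap of the lists drawn. DNA replication, mitosis, B cell and interferon gamma lists lie farther apart than the first 3, and no gene passed the adjusted test of the difference.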

How the data were processed

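Colon was homogenized in TRIzol, and its total RNA, carrying a biotin label, was put on Affymetrix HT MG-430 PM arrays, per the labels' protocols and the platform annotation, 1 array per sample. The deposited intensity values are linear and rounded to whole numbers, from 4 to 14185 over 45037 probe sets and 36 arrays; how the authors summarized probes, corrected for background or normalized is not given in the labels. Correlations among the 10 arrays compared, on the log2 scale, were 0.933 to 0.992, and 0 pairs of the 36 arrays were identical.

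Intensities plus 1 were put on the log2 scale and quantile normalized over the 36 arrays. Probe sets with exactly 1 symbol in the platform annotation (28898; 551 had several and 15588 none) were reduced to the one with the highest mean per gene, which left 17097 genes. Related genes such as defensins can share a probe set. limma 3.58.1 in R 4.3.3 fitted 1 mean for each of the 8 groups, with an intensity trend in the variances, and the contrast was WT tumor minus WT day 15, with Benjamini-Hochberg adjustment and a threshold of 0.05. Limma's adjusted p is the p given in the text unless another is named. Printed levels are the deposited intensities.

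Named genes were the 15 largest rises and 15 largest falls among called genes without overlap and with a mean of at least 64 in the higher group, Il17rc, and members of 53 gene lists with the smallest p or needed as markers. The rule's AI854703 and Rdh18-ps and part of the list members are not printed. Mcm7, Sp5, Mt4's untreated values and genes given only by name were chosen after their values were seen. Members and lists were chosen with earlier results of these data known, and the list of pancreatic genes after seeing these values. Promoters came from the RefSeq table of GRCm38.p6. In a test on simulated data, 100 genes per size were changed among 17097. There the procedure recovered 87% of changes of 1 and 96% of changes of 2 log2 units in this comparison, and 7.58% of 198 calls were false. The simulated noise was independent between genes and equally wide on every array, and no array stood apart. Far fewer genes were changed than were called in the data, so these percentages need not hold for the real calls. Equal replicate numbers in the titles were checked for pairing by correlating residuals of tumor and day 15 arrays; they gave -0.163, 0.0602, 0.204 and -0.143, so the samples were taken as unpaired. Alternatives are given in the closing section.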

Additional observations from a re-analysis of the deposited data

Results flagged for a closer look

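For 106 of the genes whose values are printed, 212 groups of values (the 6 WT tumors or the 4 WT day 15 arrays) were searched. Dixon's test was used to find an array far from the rest of its group, and 41 were found, where chance gives about 1 in 20. WT tumor replicate 6 accounted for 22 of them. It was far below the other tumors for Defa21 (18 units), Mmp7 (828), Wif1 (58), Bex1 (204), Lgr5 (71), Nfe2l3 (64), Notum (31), Prox1 (30), Rnf43 (32), Sp5 (33), Wnt6 (9), Cldn4 (460), Abcc4 (231), Csnk1e (145), Mt3 (23) and Dctd (32). It was far above them for Slc37a2 (75 units), Pyy (1479), B3gnt7 (76), Muc3 (5151), Il17rc (223) and Myh11 (1419).

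WT tumor replicate 4 was above the other tumors for Cdk1 (902 units), Aurkb (182) and Krt5 (46). WT day 15 replicate 1 was above the other day 15 arrays for Itln1 (19 units), Pnliprp1 (65), Cela3b (414), Ctrb1 (264) and Cpa1 (76), and below them for Notum (9), Cdk1 (117) and Top2a (116). WT day 15 replicate 2 was below the others for Nebl (10 units) and Mcpt2 (27), and replicate 3 for Il23a (8). WT day 15 replicate 4 was below the others for 2310079G19Rik (64 units), B3gnt7 (95), Wnt10a (8) and Upp1 (282), and above them for Cfi (15). Levels near 14 to 16 units lie at the median of an array, where small differences are not reliable.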

How the results depend on the processing

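Over 26 alternatives, 0 named genes changed sign where the main fit or the alternative called them. Counts were scored only as kept or moved, so a reversal could not be scored for them. The balance of rises and falls changed in some lists, such as the macrophage genes and those induced by IL-17, as given above. Called genes past 1 log2 unit, 794, ranged from 623 to 1019 when each array was left out in turn. They numbered 551 with a pseudocount of 16 and 602 with the mean of all probe sets. Without WT tumor replicate 6 and WT day 15 replicate 4 they numbered 1147. The number of all called genes, 3414, ranged from 2370 to 3843 when each array was left out in turn. It was 3379 with a pseudocount of 16, 3297 with each array centred on its median (69.1% higher, against 61.2%), 3329 without normalization, 3245 without dim genes, 3223 with the mean of all probe sets, 4578 with array weights and 2300 with only the arrays compared. With the replicate block, in the fit of only the arrays compared, it fell to 1481, and this fit has fewer arrays and fewer degrees of freedom. The residual correlations showed no pairing by replicate number, but they are too few to exclude it. As an alternative chosen after seeing the data, leaving out WT tumor replicate 6 and WT day 15 replicate 4 gave 3789 calls. Leaving out the 4 arrays with Cela3b above 100, also chosen so, gave 2277 with fewer arrays in both groups. Without the pair of KO day 7 arrays that had more Il17rc than other KO arrays, also chosen so, there were 3393 calls. The difference between WT and KO changes had 0 calls in every setting. Of the 96 called genes whose values are printed, 91 kept the call without those 4 arrays (lost in Traf3ip2, Reg3b, Per3, Hoxb13 and Slc39a4) and 90 with the replicate block (lost in Traf3ip2, Il17rd, Cdkn1a, Upp1, Hoxb13 and Slc39a4), and all 96 kept their sign in both. Signals near background limit the rest: 34.5% of genes had a mean below 16 in both groups.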

Other observations

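Gene groups outside the report showed a few clear members. Gpx2, the glutathione peroxidase of gut epithelium, had 5210 to 6282 units in WT tumors, against 2186, 4067, 3324 and 2508 units at WT day 15, a log2 difference of 0.97 ± 0.16 (adjusted p = 6.38e-05). Krt7, a keratin of simple ductal epithelium, had 1717 to 3691 units in tumors and 1264 to 1411 at day 15, a difference of 1.12 ± 0.22. Mt3, a metallothionein best known from brain, had 136, 125, 232, 180, 172 and 23 units in tumors, against 27, 24, 22 and 27 units at day 15, and Slc39a4, the zinc importer ZIP4, had 505 to 741 units in tumors and 289 to 486 at day 15. The Slc39a4 call was lost without the 4 arrays with Cela3b above 100. Of 8 metallothionein and zinc transport genes, 3 rose and 2 fell.

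Ccl28, a chemokine of colon epithelium that draws plasma cells, had 249, 293, 173, 250, 265 and 656 units in tumors, against 1263, 1131, 1527 and 363 units at day 15, and fell by 1.73 ± 0.39 on the log2 scale (adjusted p = 0.00154). Of 14 plasma cell genes, 1 rose and 0 fell, with 0 to 5 rises when single arrays were left out, the most without tumor replicate 4. Cpt1a, which carries fatty acids into mitochondria, had 273 to 585 units in tumors and 523 to 902 at day 15, and 4 of 21 genes of fatty acid oxidation and ketone production fell while 0 rose. Leaving out single arrays gave 2 falls (without tumor replicate 4) to 9 (without day 15 replicate 4), and without tumor replicate 6 and day 15 replicate 4 together it was 10.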
